A study of Mus musculus with 4 samples.

Results

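Glycolysis splits glucose into pyruvate in the cytosol, and the hypoxia-inducible factors (HIF) are transcription factors that raise many of its genes when oxygen falls. In the presence of oxygen, EGLN prolyl hydroxylases mark the HIF alpha subunits for destruction through the VHL protein. When the alpha subunits last, they pair with ARNT and bind DNA at hypoxia response elements. Macrophages lean on both systems, since glycolysis feeds their activation and HIF-1 alpha and HIF-2 alpha steer their work in poorly oxygenated tissue.

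The 34 genes examined here were picked by symbol from that pathway, and earlier results of these data were known when they were chosen. They comprise 20 genes of glucose uptake, glycolysis and lactate handling (called glycolytic genes below), 12 targets of HIF outside that route, and the 2 HIF alpha subunits Hif1a and Epas1. Of the 34, 32 had a probe set among the 19505 genes tested, and Gpi1 and Eno1 were not analysed here. Many glycolytic genes are HIF targets too, so the classes share known control.

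RNA came from macrophages grown from femoral bone marrow of Hem1 KO mice, a knockout of the gene Nckap1l that encodes Hem1, and of WT mice, with 2 arrays per genotype from separate animals (replicates 1 and 2). Hem1 is the blood-cell subunit of the WAVE complex, which switches on Arp2/3-driven actin branching. All cultures grew for 8 days in RPMI medium with 20% L929-conditioned medium, a source of the growth factor CSF1, and 10% fetal calf serum, and no treatment is recorded. The deleted part of Nckap1l, the strain, age and sex of the mice and the oxygen and glucose of the cultures are not given in the sources used here. Values are log2 signals of a probe set, and differences are Hem1 KO minus WT with the standard error (SE) of limma, a linear model that shares its estimate of spread across genes. A gene was called at a Benjamini-Hochberg adjusted p under 0.05 over all genes.

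Nckap1l read 10.04 and 9.62 on the Hem1 KO arrays, against 11.37 and 11.11 on the WT arrays (log2 difference -1.41, SE 0.32, adjusted p = 0.0467). It was no longer called when WT replicate 1 (adjusted p = 0.381), WT replicate 2 (0.128) or Hem1 KO replicate 2 (0.0874) was left out. Whether its probes lie in the deleted part is unknown, so this checks the labels only in part. All 9 measured macrophage markers lay above background on every array, and limma called 0 of them, while 1 was lower with a raw p below 0.05 (median -0.30). Of 9 measured stromal cell markers, 6 were called higher in the Hem1 KO cultures and 0 lower, with a median difference of 1.94. The calls of Col1a2, Col3a1 and Acta2 ended without WT replicate 2. Those of Col1a2 and Col3a1 also ended among the genes above background on 2 or more arrays (adjusted p = 0.0855 and 0.0978 by limma). The log2 values of all 9 summed to 79.8 and 74.5 on the Hem1 KO arrays, against 65.2 and 60.5 on the WT arrays, and between 6 and 7 of the 9 lay above background on each array. Among 5 endothelial markers Cdh5 alone was called (at least 1.86-fold higher, adjusted p = 0.00622), a call that ended after quantile normalization (0.0738), and among 9 neutrophil markers Mmp8 alone (-2.21, adjusted p = 0.00561). Limma called 0 of 4 B cell, 7 T and NK cell, 3 erythroid and 7 cycling cell markers, and none of them had a raw p below 0.05. The median differences were 0.13 for endothelial, -0.18 for neutrophil, -0.48 for B cell, 0.00 for T and NK cell, -0.12 for erythroid and 0.09 for cycling cell markers. Some markers were at or below background on all 4 arrays, where a difference says little. These were Lum and Thy1 of the stromal list, Tek of the endothelial list, Ms4a1 of the B cell list, Mpo, Ngp, Ltf, S100a8 and Retnlg of the neutrophil list, and Cd3e, Cd3g, Cd8a, Ncr1 and Klrb1c of the T and NK cell list.

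Hem1 KO replicate 1 stood apart from the other arrays in the spread of its values, with an SD over all genes of 2.00, against 2.15 on each of the others. All 7 measured cycling cell markers were lower on it than on Hem1 KO replicate 2, by a median of 1.79. Both Hem1 KO arrays lay off the WT arrays in these markers. Their median deviation from the mean of the 4 arrays was -0.85 and 0.94 on Hem1 KO replicates 1 and 2, against -0.02 and -0.07 on the WT arrays. Which Hem1 KO array is the unusual one was not tested. Mki67, a proliferation antigen named here after its values were seen, read 9.49 and 11.29 on the Hem1 KO arrays, against 10.33 and 10.28 on the WT arrays. Values without Hem1 KO replicate 1 stand beside the class medians and beside single members below.

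Among the genes of glycolysis and the HIF response, the HIF alpha subunit Epas1 was higher in Hem1 KO than in WT cultures, which were measured whole. The other measured genes did not pass the test. Limma called 1 of the 32 measured members higher, which was Epas1, and 0 lower, against 1.48% and 0.133% of all genes (1.61% in both directions). A raw p below 0.05 was found for 2 members, both higher, against 5.2% of all genes. Epas1 was also the 1 member with an absolute log2 difference over 1, against 3.13% of all genes. The median difference was -0.01 over 18 glycolytic genes and 0.01 over 12 HIF targets, against 0.01 over all 19505 genes. In the glycolytic class 9 genes lay above 0 and 9 under it, and among the HIF targets 6 and 6, while 51.8% of all genes lay above 0. Without Hem1 KO replicate 1 the medians were -0.11 for glycolytic genes and -0.26 for HIF targets, and the median of all genes was -0.18. Without Hem1 KO replicate 2 they were 0.11 for glycolytic genes and 0.33 for HIF targets, and 0.21 for all genes.

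**Figure D1:**
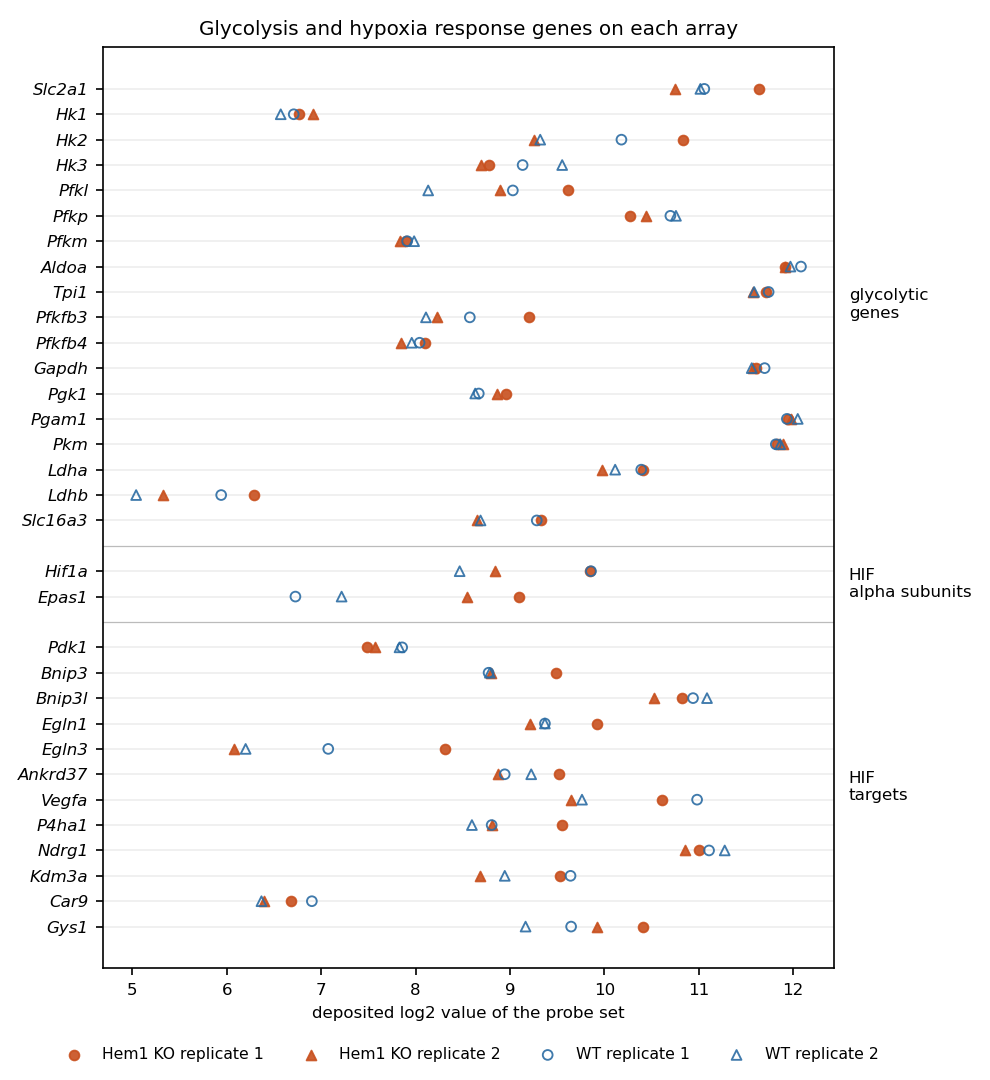
Deposited log2 value (horizontal axis) of the 32 measured genes on each of the 4 arrays, with Hem1 KO arrays filled and WT arrays open, circles for replicate 1 and triangles for replicate 2. The genotypes separate widely for Epas1, whereas for Hk2, Egln3, Vegfa and Hif1a the circles of both genotypes lie to the right of the triangles.

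The precision sets what these arrays could show. Among the 31 members that were not called, the adjusted p-values were 0.858 or higher, and the smallest absolute log2 difference called among all genes was 1.39. The 95% interval of the difference lay wholly between -1 and 1 for 12 of the 18 glycolytic genes and 6 of the 12 HIF targets. For those 18 genes a 2-fold change in either direction lay outside the interval. For the other 13 members that were not called, the interval included such a change in at least 1 direction.

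Glucose enters through Slc2a1, the transporter GLUT1, which read 11.64 and 10.75 on the Hem1 KO arrays, against 11.06 and 11.02 on the WT arrays. The Hem1 KO arrays bracketed the WT arrays, and the difference was 0.16 (SE 0.35). Hexokinases then phosphorylate glucose. Hk2, the inducible form, read 10.84 and 9.25 on the Hem1 KO arrays, against 10.18 and 9.32 on the WT arrays, and the arrays of the genotypes overlapped. Hk3, a form found in myeloid cells, had the lowest difference of all members: it read 8.78 and 8.69 on the Hem1 KO arrays, against 9.13 and 9.55 on the WT arrays. Both Hem1 KO arrays lay below both WT arrays, yet the difference of -0.61 (SE 0.32, 95% interval -1.30 to 0.08) did not pass the test. Hk1, the housekeeping form, stood at 0.20 (SE 0.31).

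Phosphofructokinase, the committed step, is built from the liver-, platelet- and muscle-type subunits Pfkl, Pfkp and Pfkm. Pfkl read 9.61 and 8.90 on the Hem1 KO arrays, against 9.03 and 8.13 on the WT arrays. Its difference of 0.67 (SE 0.38, 95% interval -0.15 to 1.49) was the highest among the glycolytic genes, and its arrays overlapped between the genotypes. Without Hem1 KO replicate 1 it was 0.32. Pfkp read 10.27 and 10.44 on the Hem1 KO arrays, against 10.70 and 10.76 on the WT arrays, without overlap but also without a call (-0.37, SE 0.31). Pfkm differed by -0.08. Pfkfb3 and Pfkfb4 make and remove the sugar bisphosphate that activates phosphofructokinase. Pfkfb3 read 9.20 and 8.23 on the Hem1 KO arrays, against 8.58 and 8.11 on the WT arrays (0.37, SE 0.37), and Pfkfb4 differed by -0.03.

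Apart from Pgk1, the enzymes measured below that step were bright, with differences near 0. Aldoa, which splits the phosphorylated sugar, and Tpi1, which interconverts the products, differed by -0.12 and -0.02. Gapdh, the dehydrogenase widely used as a loading control, read 11.61 and 11.57 on the Hem1 KO arrays, against 11.70 and 11.56 on the WT arrays (-0.04, 95% interval -0.71 to 0.63). Pgk1, the first ATP-yielding step, was at 8.96 and 8.87 on the Hem1 KO arrays, against 8.67 and 8.63 on the WT arrays (0.26, SE 0.31), without overlap. Pgam1 and Pkm, a mutase and pyruvate kinase, differed by -0.03 and 0.02. After quantile normalization Tpi1, Gapdh and Pgam1 turned to 0.12, 0.12 and 0.07, so these small differences have no settled sign.

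Lactate handling showed no call either. Ldha, which turns pyruvate into lactate, read 10.41 and 9.97 on the Hem1 KO arrays, against 10.39 and 10.11 on the WT arrays (-0.06, SE 0.32). Slc16a3, the lactate exporter MCT4, differed by 0.00 (SE 0.35). Ldhb, whose product favours the reverse reaction, was the only measured member that did not lie above background on all 4 arrays. It read 6.29 and 5.32 on the Hem1 KO arrays, against 5.94 and 5.04 on the WT arrays, and lay above background on replicate 1 of each genotype.

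The HIF alpha subunits differed from each other in their values. Epas1, which encodes HIF-2 alpha, read 9.10 and 8.55 on the Hem1 KO arrays, against 6.73 and 7.22 on the WT arrays, with no overlap. Its level was 3.61-fold higher in Hem1 KO (log2 1.85, SE 0.34, 95% interval 1.12 to 2.59, adjusted p = 0.0113 by limma). Hif1a, which encodes HIF-1 alpha, read 9.85 and 8.85 on the Hem1 KO arrays, against 9.86 and 8.47 on the WT arrays. For Hif1a the arrays of the genotypes overlapped and the difference was 0.18 (SE 0.45, 95% interval -0.80 to 1.16). That interval reaches past a doubling, so a rise of that size in Hif1a was not excluded. Whether Epas1 and Hif1a differ in their response was not tested.

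The Epas1 call held without Hem1 KO replicate 1 (1.57, adjusted p = 0.00774) and ended without WT replicate 1 (1.61, adjusted p = 0.0696). Over its 10 refitted alternatives the adjusted p ran from 1.21e-05 to 0.0696. Those refits called different shares of all genes: 1.9% with Hem1 KO replicate 1 left out and 3.07% with the other Hem1 KO array left out, and 1.83% and 1.23% with WT replicates 1 and 2 left out in turn. The share was 2.41% after median centring and 1.69% after quantile normalization. It was 1.39% of the genes above background on 2 or more arrays, 3.15% with an intensity trend and 4.2% with the replicate number as a block. The stromal markers rose beside Epas1, with a median of 1.94. Of 5 endothelial markers, whose median was 0.13, Cdh5 alone was called, at least 1.86-fold higher. That call ended after quantile normalization (adjusted p = 0.0738 by limma). Stromal and endothelial cells are known to express Epas1, and the part of other cells in its rise was not tested. In cultures measured whole, more cells of a type and more RNA per cell cannot be told apart.

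**Figure D2:**
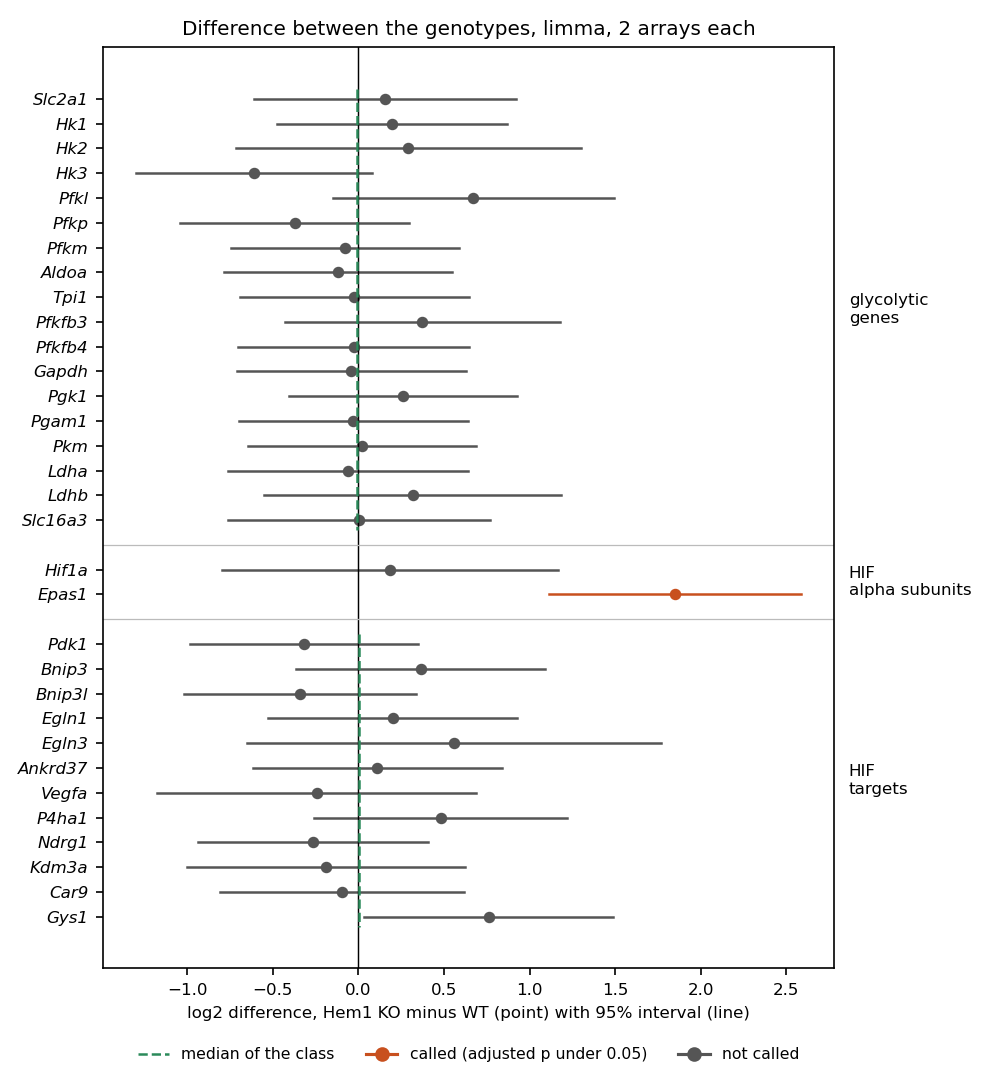
Log2 difference of each measured gene, Hem1 KO minus WT (point), with limma's 95% interval (line) and the median of each larger class (dashed line). Epas1 alone is called, at 1.85 with an interval of 1.12 to 2.59, and the intervals of 30 of the other 31 genes cross 0, all but that of Gys1.

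The HIF targets outside glycolysis were not called. Limma called 0 of 12, and 1 had a raw p below 0.05. That gene was Gys1, glycogen synthase, which read 10.41 and 9.92 on the Hem1 KO arrays, against 9.65 and 9.17 on the WT arrays. Both Hem1 KO arrays lay above both WT arrays (1.69-fold, log2 difference 0.76, SE 0.34, adjusted p = 0.858). P4ha1, a subunit of the enzyme that hydroxylates collagen prolines, read 9.55 and 8.81 on the Hem1 KO arrays, against 8.81 and 8.60 on the WT arrays (0.48, SE 0.34). The Hem1 KO arrays again lay above the WT arrays, on 1 array by a narrow margin, and without Hem1 KO replicate 1 the difference was 0.11. For Gys1 it was 0.52 without that array. The rise of the stromal markers, with a median of 1.94, stood beside these values as well.

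Genes that tune mitochondria lay on both sides of 0. Pdk1 encodes a kinase that slows the entry of pyruvate into the citric acid cycle. It read 7.49 and 7.57 on the Hem1 KO arrays, against 7.86 and 7.83 on the WT arrays (-0.32, SE 0.31). Bnip3 and Bnip3l, related receptors for the removal of mitochondria, went opposite ways in their values, at 0.36 (SE 0.34) and -0.34 (SE 0.32), each without overlap between the genotypes. Bnip3 read 9.49 and 8.80 on the Hem1 KO arrays, against 8.77 and 8.79 on the WT arrays, and its difference was 0.0165 without Hem1 KO replicate 1. None of these 3 genes passed the test.

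The oxygen sensors Egln1 and Egln3 stood at 0.20 (SE 0.34) and 0.56 (SE 0.56). Egln3 read 8.32 and 6.08 on the Hem1 KO arrays, against 7.08 and 6.20 on the WT arrays. Hem1 KO replicate 1 was the highest of the 4 arrays and Hem1 KO replicate 2 the lowest, and Egln3 had the largest SE of the members. Its value depended on which Hem1 KO array was kept: -0.56 without Hem1 KO replicate 1, and 1.68 (adjusted p = 0.00167) without Hem1 KO replicate 2. Vegfa, the angiogenic growth factor, read 10.61 and 9.65 on the Hem1 KO arrays, against 10.98 and 9.76 on the WT arrays, and differed by -0.24 (SE 0.43).

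The remaining targets were Ankrd37, an ankyrin repeat protein (0.11), Ndrg1, a stress-response protein (-0.27), Kdm3a, a histone demethylase (-0.19), and Car9, a surface carbonic anhydrase (-0.10). Car9 was among the dimmest members, at 6.68 and 6.40 on the Hem1 KO arrays, against 6.90 and 6.37 on the WT arrays, and lay above background on all 4.

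In 13 of the 32 measured members (40.6%) the arrays of the genotypes did not overlap, 6 with Hem1 KO higher and 7 with Hem1 KO lower. The share was 25.8% of all genes and 31.2% of the 12978 genes at least as bright as the dimmest member. The 6 were Hk1, Pgk1, Epas1, Bnip3, P4ha1 and Gys1. The 7 were Hk3, Pfkp, Pfkm, Aldoa, Pdk1, Bnip3l and Ndrg1. Of these 13, Epas1 was the one whose difference passed the test over all genes.

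Some members differed more between the 2 arrays of a genotype than between genotypes. Egln3 was 2.24 higher on Hem1 KO replicate 1 than on Hem1 KO replicate 2, a gap above that of 99.9% of all genes, and Hk2 was 1.59 higher (99.5%). The same 2 genes were 0.88 and 0.86 higher on WT replicate 1 than on WT replicate 2. Hif1a had gaps of 1.003 in Hem1 KO and 1.39 in WT, and Vegfa of 0.96 and 1.22. By contrast, the gaps of Gapdh were 0.04 in Hem1 KO and 0.14 in WT, those of Pkm -0.05 in both, and those of Pgam1 -0.03 in Hem1 KO and -0.12 in WT.

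In Hem1 KO, 11 of the 12 HIF targets and 13 of the 18 glycolytic genes were higher on replicate 1, with median gaps of 0.67 and 0.12. These counts are 91.7% and 72.2% of their classes, against 81.9% of all genes and 75.2% of the genes at least as bright as the dimmest member. Over all genes the median gap was 0.38, and over those 12978 brighter genes it was 0.27. In WT the median gap was 0.12 for HIF targets and 0.12 for glycolytic genes, against 0.28 over all genes. Across the 32 members the gaps of both genotypes correlated at r = 0.63 (Spearman's rho 0.60), against r = 0.24 across all genes. These are correlations across genes, which are not independent and share the 4 arrays. With 1 array per replicate the gaps have no test. The cycling cell markers moved the other way in Hem1 KO, with a median gap of -1.79 in Hem1 KO and 0.05 in WT, and their part in the gaps of the members was not tested.

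**Figure D3:**
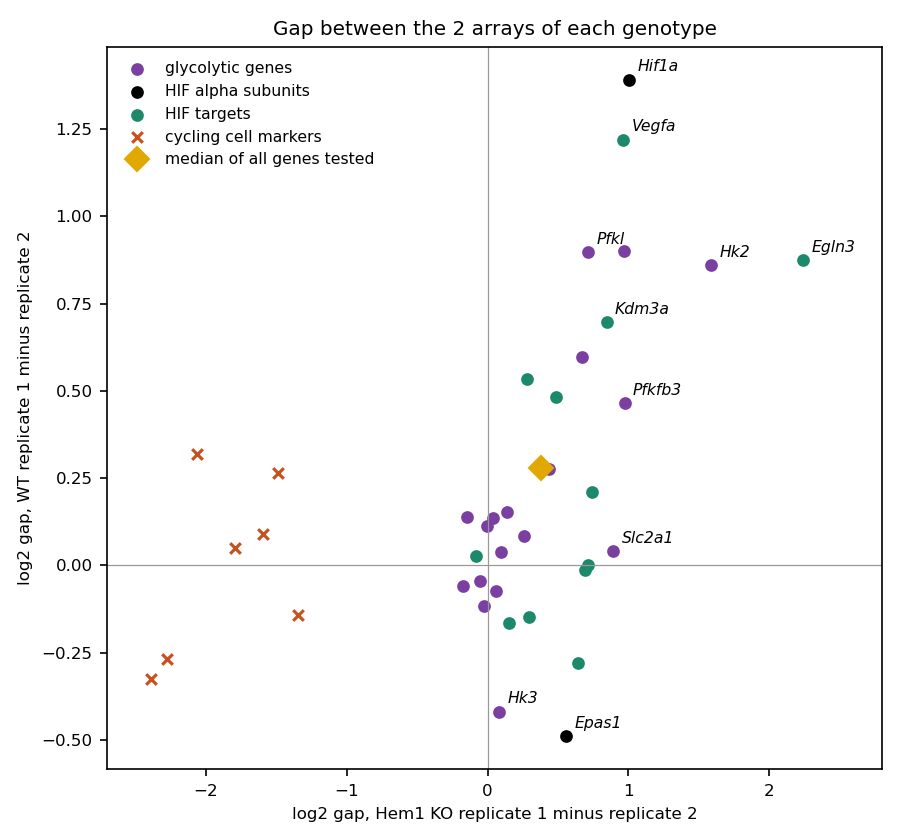
Gap in log2 value between replicate 1 and replicate 2 of Hem1 KO (horizontal axis) and of WT (vertical axis) for the 32 measured genes, with 7 cycling cell markers as crosses and the median of all genes as a diamond. Egln3 and Hk2 lie farthest right at 2.24 and 1.59, Hif1a and Vegfa highest at 1.39 and 1.22, and all crosses lie left of 0.

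The promoters of 4 members are shown because these had the smallest p among those with a sequence, and those of Hk2 and Egln3 because of their gaps, a choice made after their values were seen. The runs come from RefSeq (GRCm38.p6) and are printed 5′ to 3′ on the gene's strand. They are the 250 bases before the start that the promoter table uses, except that for Hk3 and P4ha1 only the first 160 and 151 of these are printed, because the other 90 and 99 lie inside the gene as RefSeq bounds it. Capitals mark ACGTG or GCGTG, the core letters of a hypoxia response element, on either strand (read as CACGT or CACGC on the other).
Gys1, chr7:45434589-45434838, plus strand: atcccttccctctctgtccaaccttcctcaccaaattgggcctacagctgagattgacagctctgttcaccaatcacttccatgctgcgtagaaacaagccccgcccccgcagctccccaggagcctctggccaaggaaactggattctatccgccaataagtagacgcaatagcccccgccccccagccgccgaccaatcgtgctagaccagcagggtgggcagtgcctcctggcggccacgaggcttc
Hk3, chr13:55021476-55021635, minus strand: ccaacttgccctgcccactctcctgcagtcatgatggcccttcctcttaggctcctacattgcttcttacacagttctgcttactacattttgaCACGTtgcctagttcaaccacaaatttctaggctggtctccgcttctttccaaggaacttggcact
Pfkl, chr10:78009808-78010057, minus strand: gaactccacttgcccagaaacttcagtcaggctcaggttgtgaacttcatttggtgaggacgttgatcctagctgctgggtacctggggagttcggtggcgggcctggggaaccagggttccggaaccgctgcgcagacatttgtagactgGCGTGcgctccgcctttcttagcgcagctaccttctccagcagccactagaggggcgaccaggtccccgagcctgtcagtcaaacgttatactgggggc
P4ha1, chr10:59323046-59323196, plus strand: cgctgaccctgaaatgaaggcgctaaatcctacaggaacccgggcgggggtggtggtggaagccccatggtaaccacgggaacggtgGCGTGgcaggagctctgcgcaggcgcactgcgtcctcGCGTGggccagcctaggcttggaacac
Egln3, chr12:54203875-54204124, minus strand: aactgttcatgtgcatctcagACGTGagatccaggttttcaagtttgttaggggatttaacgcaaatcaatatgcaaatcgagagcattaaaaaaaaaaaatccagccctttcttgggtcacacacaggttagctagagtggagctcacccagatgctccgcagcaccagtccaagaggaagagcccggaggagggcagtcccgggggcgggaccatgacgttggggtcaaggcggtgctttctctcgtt
Hk2, chr6:82774455-82774704, minus strand: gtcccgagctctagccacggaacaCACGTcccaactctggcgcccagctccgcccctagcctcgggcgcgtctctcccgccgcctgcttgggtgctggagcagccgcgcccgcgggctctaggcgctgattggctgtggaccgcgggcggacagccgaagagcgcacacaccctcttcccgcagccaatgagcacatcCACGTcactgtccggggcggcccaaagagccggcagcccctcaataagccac

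Gys1, whose values were higher on both Hem1 KO arrays, has no such match, and Hk3, whose values were lower on both, has 1. Pfkl has 1 and P4ha1 has 2 in the printed run, while another, at -16, lies inside the gene. The match in Egln3 begins at -229 and those in Hk2 at -226 and -52, counted in bases from the table's start. A match is a run of letters and not a site of binding.

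Among the measured members, 29 had a window of 300 bases in RefSeq, reaching 250 bases before to 50 after the table's start, which can lie inside the gene. Some genes had several windows, and such a gene held a match if any of its windows did. Its CpG count was the highest of its windows. ACGTG or GCGTG on either strand was held by 27 of the 29 members (93.1%). The shares were 46.7% of 27025 genes with a window and 54.1% of the 15691 tested genes with one. ACGTG alone was found in 21 (72.4%), against 24.0% of the tested genes, and GCGTG in 18 (62.1%), against 43.1%. ACGTG on both strands at once, the letters CACGTG that other factors bind too, occurred in 5 (17.2%), against 9.26% of the tested genes. The members' windows were richer in CpG dinucleotides, with a median of 24, against 16 for the tested genes, and both motifs contain one. The members were picked as known HIF-regulated or glycolytic genes, so the share describes them and tests nothing. Among measured glycolytic genes 17 of 18 held a match and among HIF targets 9 of 10, and Tpi1 and Gys1 were those without one.

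Beyond the members, 33 of 36 further HIF targets were measured. Limma called 4 higher and 0 lower, against 1.48% and 0.133% of all genes. A raw p below 0.05 was found for 9, all of them higher, against 5.2% of all genes. Of the 33, 27 lay above 0 (median 0.28), against 51.8% of all genes (median 0.01). Adm, the vasodilator peptide adrenomedullin, read 10.81 and 9.60 on the Hem1 KO arrays, against 7.27 and 5.44 on the WT arrays (14.5-fold, log2 difference 3.85, SE 0.53, adjusted p = 0.00218). Adm lay above background on 3 of the 4 arrays. Lox, which cross-links collagen and elastin, read 10.90 and 10.00 on the Hem1 KO arrays, against 8.21 and 7.21 on the WT arrays (6.67-fold, log2 difference 2.74, SE 0.40, adjusted p = 0.00281).

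Plod2, a lysyl hydroxylase of collagen, was 5.87-fold higher in Hem1 KO (log2 difference 2.55, SE 0.39, adjusted p = 0.00333), and Tmem45a, a membrane protein, 5.34-fold (2.42, SE 0.46, adjusted p = 0.0132). The call of Tmem45a ended after quantile normalization (adjusted p = 0.0646 by limma) and among the genes above background on 2 or more arrays (0.110). For all 4 the Hem1 KO arrays lay above the WT arrays without overlap. Lox and Plod2 are also known as products of matrix-forming stromal cells, whose markers rose by a median of 1.94. The part of such cells was not tested. Without Hem1 KO replicate 1 the list had a median of 0.01, and without Hem1 KO replicate 2 a median of 0.78. The median of all genes was -0.18 and 0.21 in these refits. An intensity trend gave 8 of the list called higher and 1 lower. It called 3.15% of all genes in both directions, against 1.61% without the trend. The gap between the Hem1 KO arrays had a median of 0.85 in this list, and 31 of its 33 genes (93.9%) were higher on Hem1 KO replicate 1, against 81.9% of all genes.

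Limma called 0 of 14 regulators of HIF, and 1 had a raw p below 0.05 (median -0.07). That gene was Arnt2, a relative of the HIF beta subunit Arnt. It read 7.36 and 7.07 on the Hem1 KO arrays, against 6.24 and 5.67 on the WT arrays (1.26, SE 0.33, adjusted p = 0.110). Arnt2 passed after median centring (adjusted p = 0.0216), after quantile normalization (0.0312) and without Hem1 KO replicate 2 (0.0207). The coactivator Ep300 read -0.28.

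Metabolic routes around glycolysis were not called either. Limma called 0 of 24 further glycolysis and sugar entry genes, and 1, which was lower, had a raw p below 0.05 (median 0.03). That gene was Galm, a mutarotase that turns sugars between their ring forms, which read 8.36 and 8.36 on the Hem1 KO arrays, against 9.28 and 9.14 on the WT arrays (-0.85, SE 0.31, adjusted p = 0.493). The brain-type aldolase Aldoc read -0.52. Of 12 glycogen genes limma called 0, and 1 had a raw p below 0.05 (median -0.03). The glycogen-targeting subunits Ppp1r3b and Ppp1r3c stood at 0.86 (adjusted p = 0.513) and 0.91, and Ppp1r3c lay above background on 2 of 4 arrays. Ppp1r3c passed without Hem1 KO replicate 2 (1.75, adjusted p = 0.000886) and stood at 0.0679 without Hem1 KO replicate 1.

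Of 7 pentose phosphate genes limma called 0 and found none with a raw p below 0.05 (median 0.00). Taldo1 and Pgd, enzymes of that pathway, read -0.34 and -0.16. Of 29 genes of pyruvate entry and the citric acid cycle limma called 0, and 1 had a raw p below 0.05 (median -0.13). Of these 29, 21 lay under 0, against 9392 of all 19505 genes. Among the 12978 genes at least as bright as the dimmest member, 7247 lay under 0. Pcx, pyruvate carboxylase, read 7.28 and 6.79 on the Hem1 KO arrays, against 6.19 and 6.22 on the WT arrays (0.83, SE 0.32, adjusted p = 0.604). Mpc1, a subunit of the mitochondrial pyruvate carrier, read 10.02 and 10.09 on the Hem1 KO arrays, against 10.63 and 10.76 on the WT arrays (-0.64, SE 0.31).

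**Figure D4:**
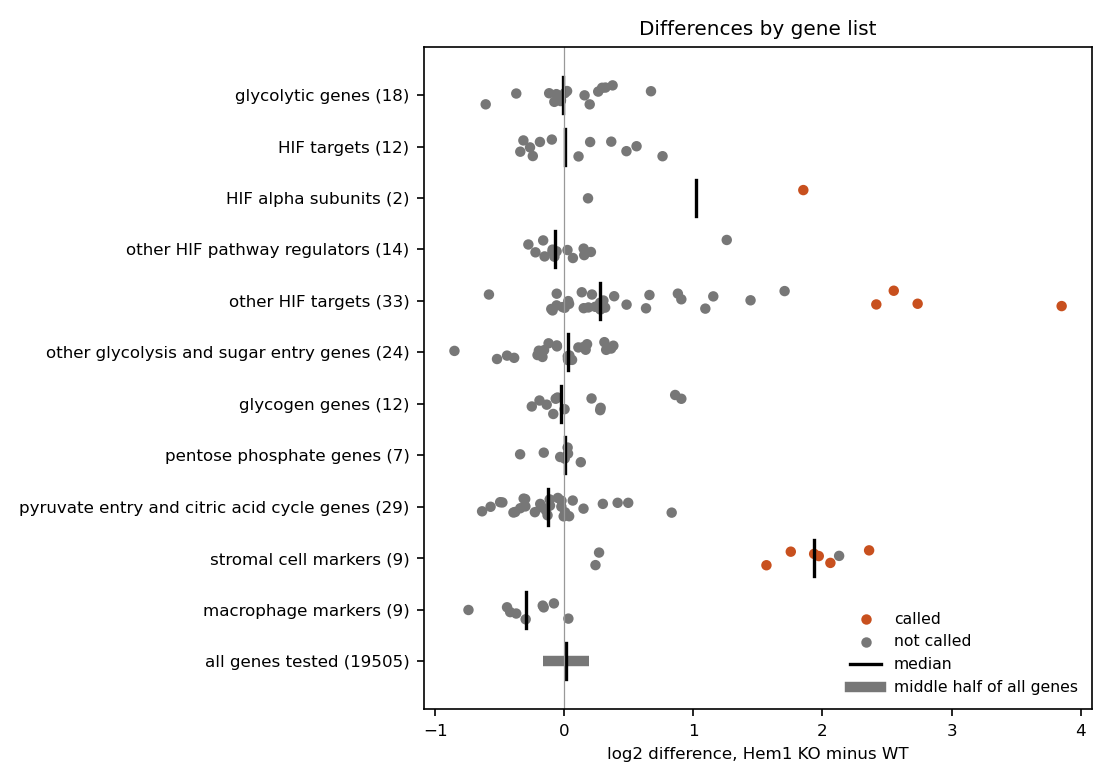
Log2 difference, Hem1 KO minus WT, of every measured gene in each of 11 lists (points, called genes in orange), with the list's median as a black bar, its number of genes in brackets and the interquartile range of all genes as a grey bar. Of the lists shown, those with medians farthest from 0 are the stromal markers at 1.94, the other HIF targets at 0.28, the macrophage markers at -0.30 and the pair of HIF alpha subunits, of which Epas1 is called.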

How the data were processed

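The authors deposited log2 values of 1 array per mouse for 29129 probe sets and controls. The submitters' processing notes name RMA, without settings or a version, and the log2 scale was read from the values. The platform annotation gives 1 gene for 19572 of these rows, several for 0 and none for 9557. The brightest probe set per gene by its mean over the 4 arrays was kept (55 genes had several), which left 19505 genes. Genotype was tested two-sided by lmFit and eBayes of limma 3.58.1 (R 4.3.3), without intensity trend or filter, and p-values were adjusted by Benjamini-Hochberg across the 19505 genes. Ero1l was matched to Ero1a through RefSeq synonyms. Background is the 95th percentile, per array, of 1450 chemosensory receptor genes. Where both arrays of a group lay at or below it, the fold is given as "at least", with the dim arrays raised to background.

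The number of arrays limits the precision. P-values rest on 2 arrays per genotype, and an exact permutation test of 2 against 2 cannot go below 0.333. The replicate numbers are not stated to pair the mice. The members, lists and tests were chosen with earlier results of these data known. Named are all members, Nckap1l, and of each further list every called gene up to 6, or up to 2 with the smallest p where none was called. Among marker lists, called genes and those at or below background on all 4 arrays are named, with Mki67 added. The alternatives left out each array, blocked on the replicate number, applied median centring or quantile normalization, kept genes above background on 2 or more arrays, let the prior follow intensity, averaged probe sets, or raised the threshold to 0.1. The fit was also run on simulated arrays with independent noise for each gene and no shift shared across an array. That run cannot show how such shifts affect the calls. Figures were drawn with matplotlib 3.10.9.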

Additional observations from a re-analysis of the deposited data

How the results depend on the processing

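Epas1 was called in 9 of 10 refits and stayed above 0 in all of them, from 1.57 to 2.13. Averaging probe sets could not move its difference from 1.85, because Epas1 has 1 probe set. The call was narrow after quantile normalization (adjusted p = 0.0492 by limma) and after the filter on dim genes (0.0496). The count of members called higher was 1, and ran from 0 to 2 when an array was left out. It was 2 with an intensity trend in the prior, which added Gys1 (adjusted p = 0.0452). The count of members called lower was 0 in every alternative run. The glycolytic median ran from -0.11 to 0.11 when an array was left out, and that of the HIF targets from -0.26 to 0.33. Over all genes, 288 were called higher and 26 lower. Leaving out an array gave 185 to 545 higher and 26 to 101 lower. The filter on dim genes gave 174 higher and 8 lower, median centring 70 lower, quantile normalization 16 lower and the intensity trend 205 lower. Nckap1l ran from -1.62 to -1.20 when an array was left out, its call ended without either WT array or Hem1 KO replicate 2, and it stood at -1.41 (adjusted p = 0.0866) after the filter. Median centring moved the median of all genes by 0.10, to -0.09.

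With the replicate number as a block, 620 genes were called higher and 199 lower, and Epas1 stayed the only called member (adjusted p = 0.000187). Arnt2, Galm, Ppp1r3b and Ppp1r3c passed as well (adjusted p = 0.00177, 0.0346, 0.0400 and 0.0465), and 9 of the 33 further HIF targets were called higher. The deviations of same-numbered arrays from their group means correlated at 0.24 across genes, which is the gap correlation given above and has no test. Nothing in the labels states that the numbers pair the mice, and whether same-numbered arrays share an origin was not tested.

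Leaving out 1 array turned the sign of 18 of the 32 measured members, none of them called with all arrays. Their lowest and highest differences were -0.29 and 0.60 for Slc2a1, -0.50 and 1.09 for Hk2, -0.10 and 0.0534 for Tpi1, -0.11 and 0.86 for Pfkfb3, -0.16 and 0.10 for Pfkfb4, -0.11 and 0.0269 for Gapdh, -0.0866 and 0.0286 for Pgam1, -0.00589 and 0.0483 for Pkm, and -0.28 and 0.16 for Ldha. They were -0.17 and 0.80 for Ldhb, -0.33 and 0.34 for Slc16a3, -0.51 and 0.88 for Hif1a, -0.16 and 0.56 for Egln1, -0.56 and 1.68 for Egln3, -0.21 and 0.43 for Ankrd37, -0.85 and 0.37 for Vegfa, -0.61 and 0.23 for Kdm3a, and -0.36 and 0.17 for Car9. Aldoc, a further glycolysis gene, ran from -1.12 to 0.0751. Median centring turned Pkm (-0.0790) and Slc16a3 (-0.10), and quantile normalization turned Tpi1 (0.12), Gapdh (0.12), Pgam1 (0.0653) and Ldha (0.0747). The cause was not tested. With an array left out, the lone array is assumed to vary like the other group.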

Other observations

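Genes outside the lists also set the 2 arrays of a genotype apart. Of the 20 genes with the largest excess on replicate 1 over replicate 2, 6 were shared by Hem1 KO and WT: Il1b, Ptgs2, Cxcl2, H2-Eb1, Adgre4 and Pxdc1, chosen after their values were seen. Il1b, an inflammatory cytokine, was 3.57 higher on replicate 1 in Hem1 KO and 3.43 in WT, and Ptgs2, the inducible cyclooxygenase, 3.62 and 3.58. Neither was called between the genotypes (-0.52 and 0.10). On Hem1 KO replicate 2 the largest excess over Hem1 KO replicate 1 included the mitotic genes Bub1 (gap -2.39), Aurkb (-2.28) and Kif2c (-2.18), whose gaps in WT were -0.33, -0.27 and 0.09.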
